A study of Mus musculus with 6 samples.

Results

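The colony-stimulating factors and their receptors were followed as 8 genes, chosen by symbol: the ligands Csf1, Csf2 and Csf3 and the receptor genes Csf1r, Csf2ra, Csf2rb, Csf2rb2 and Csf3r. All 8 were present among the 40773 symbols of the count table, and 18179 of those symbols had a count. The cells were RAW264.7, a mouse macrophage line of tumour origin, so the data describe 1 transformed line and not primary macrophages. In 3 cultures the cells received lipopolysaccharide (LPS, a molecule of the outer membrane of bacteria that is sensed by Toll-like receptor 4) at 100 ng/mL for 24 h. In the other 3 cultures the same LPS dose was joined for 24 h by 3A2, an antibody that neutralizes the membrane metalloproteinase MMP14, at 50 µg/mL. Both groups carry the genotype label plain and both received LPS, so no value here measures the response to LPS itself. Cultures with no LPS or with a control antibody were not analysed here. RNA depleted of ribosomal RNA was sequenced and counted per gene, and the question was what neutralizing MMP14 changes in LPS-treated macrophages.

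Colony-stimulating factors (CSFs) are secreted glycoproteins that drive survival, growth and activation of myeloid cells. CSF1 (M-CSF) signals through CSF1R, a receptor tyrosine kinase that macrophages need for survival and that is held on the cell surface until it is cut off by sheddases or internalized with its ligand. CSF2 (GM-CSF) binds the α chain encoded by Csf2ra together with the common β chain encoded by Csf2rb, which signals through JAK2 and STAT5, and CSF3 (G-CSF) binds CSF3R, a receptor typical of neutrophils and their precursors. Mice carry a second β chain gene, Csf2rb2, whose product pairs with the interleukin-3 receptor α chain. CSF2 and CSF3 are made by macrophages after Toll-like receptor stimulation, and their mRNAs are classic targets of decay through AU-rich elements.

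The ligand mRNAs are shown first by the element through which such mRNAs are known to be degraded. In each of the 3 ligand transcripts the 30 bases with most copies of ATTTA, the core of an AU-rich element, are printed 5′ to 3′ from the coding strand, with the copies in capitals, from the GENCODE M21 mouse transcripts (GRCm38). Positions count from the first base after the stop codon of the transcript with the longest coding sequence.
Csf1, bases 2034 to 2063: ATTTAaatatctATTTAaaaaataggaagc
Csf2, bases 239 to 268: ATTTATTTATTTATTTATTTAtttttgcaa
Csf3, bases 32 to 61: ATTTAtctctATTTAatATTTAtgcatatt
The Csf2 window held 5 overlapping copies of ATTTA, the Csf3 window 3 and the Csf1 window 2. Over the whole stretch after the stop codon, searched on the transcript strand, Csf2 had 9 copies in 317 bases. Of the 1829 genes whose stretch is within 20% of that length, 0.0547% had at least as many, which is Csf2 alone. Csf3 had 6 copies in 669 bases, a number reached by 1.59% of 2322 genes of like length. Csf1 had 4 copies in 2111 bases, reached by 48.9% of 2417 genes of like length. Among genes of like length, 0.109% for Csf2, 1.29% for Csf3 and 27.3% for Csf1 had a 30-base window at least as dense. Csf2ra, Csf2rb, Csf2rb2 and Csf3r had 0 copies, and Csf1r had 3 copies that never shared a 30-base window. The longer motif TTATTTATT, which overlaps ATTTA, was present in Csf2 and in 2.24% of genes of like length, and no other member held it. A match to these letters is a description of the transcript and does not show a working site.

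The paired receptor genes Csf2rb and Csf2rb2 are shown next, because their likeness decides how far their counts can be told apart. Their coding sequences, 2691 and 2637 bases long, were 95.2% identical, with 126 mismatches over 2631 aligned positions. The 60 aligned bases with most mismatches are printed 5′ to 3′, with the 13 mismatched bases in capitals and positions counted from the start codon.
Csf2rb, bases 304 to 363: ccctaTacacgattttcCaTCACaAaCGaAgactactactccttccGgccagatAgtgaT
Csf2rb2, bases 307 to 366: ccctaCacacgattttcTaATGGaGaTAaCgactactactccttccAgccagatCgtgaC
The bases just upstream of that stretch carry no difference between the copies, and they belong to the 60 aligned bases printed below.
Csf2rb, bases 245 to 304: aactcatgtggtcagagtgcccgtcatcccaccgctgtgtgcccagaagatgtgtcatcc
Csf2rb2, bases 248 to 307: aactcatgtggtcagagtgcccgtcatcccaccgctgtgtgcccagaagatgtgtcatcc
The longest identical run in the coding alignment was 242 bases, longer than the 150-base reads named in the labels. Of all 150-base windows in the Csf2rb transcript, 3.47% occurred unchanged in a Csf2rb2 transcript, and 3.59% the other way. For windows of 50 bases the shares were 18.4% and 19%. Reads from such windows fit both genes equally. How the authors' counting treated such reads is not given in the sources used here, so the values of each gene are uncertain to that extent and their sum is given as well.

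The 6 libraries held 6060732 to 7432553 counts, with 14998 to 15309 genes detected in each. Levels are given in CPM, which scale the counts of each library to a common total, here after TMM scaling. Of the 8 genes, 6 passed the filter on low counts. Csf2 and Csf3r did not, and were kept in a separate fit for their own values only. Mmp14, which encodes the target of the antibody, summed to 6 counts with LPS and 11 with LPS plus 3A2, too few to show a difference (exact permutation p = 0.3, two-sided, where 0.1 is the smallest that 3 against 3 libraries allow). Since the antibody acts on MMP14 protein, its mRNA cannot show whether the treatment worked.

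Among the ligands, Csf3 was abundant and Csf1 and Csf2 were close to the limit of detection. Csf3, which encodes the granulocyte growth factor, measured 225, 243 and 233 CPM in LPS replicates 1 to 3, and 228, 249 and 230 CPM with LPS plus 3A2. The groups overlapped fully, and replicate 2 was the highest library in each. The mean was 234 ± 9.06 CPM with LPS and 236 ± 11.5 CPM with LPS plus 3A2 (SD, n = 3), a fold change of 1.01 with a 95% interval of 0.918 to 1.11. By edgeR's quasi-likelihood test the Benjamini-Hochberg adjusted p was 0.979.

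Csf1, the ligand of CSF1R, had 13, 18 and 9 counts with LPS and 11, 15 and 14 with LPS plus 3A2. This is 1.9, 2.41 and 1.38 CPM against 1.79, 2.31 and 2.34 CPM, and the lowest and the highest library were both LPS cultures. The fold change was 1.12 with an interval of 0.658 to 1.9 (edgeR adjusted p = 0.948). Csf2, the granulocyte-macrophage factor, had 6, 10 and 2 counts with LPS and 10, 5 and 2 with LPS plus 3A2. Pooled over a group this is 0.869 CPM (exact Poisson 95% interval 0.515 to 1.37) and 0.903 CPM (0.526 to 1.45). These intervals cover counting error only. Antibody over LPS, the count ratio was 1.04 (interval from counting error 0.503 to 2.14), and the exact two-sided permutation test gave p = 0.9. At this depth a doubling of Csf2 could not be told from no change. Il34, which encodes the other ligand of CSF1R, had 11, 8 and 14 counts with LPS and 6, 11 and 6 with LPS plus 3A2, at 0.777-fold (0.404 to 1.49).

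**Figure D1:**
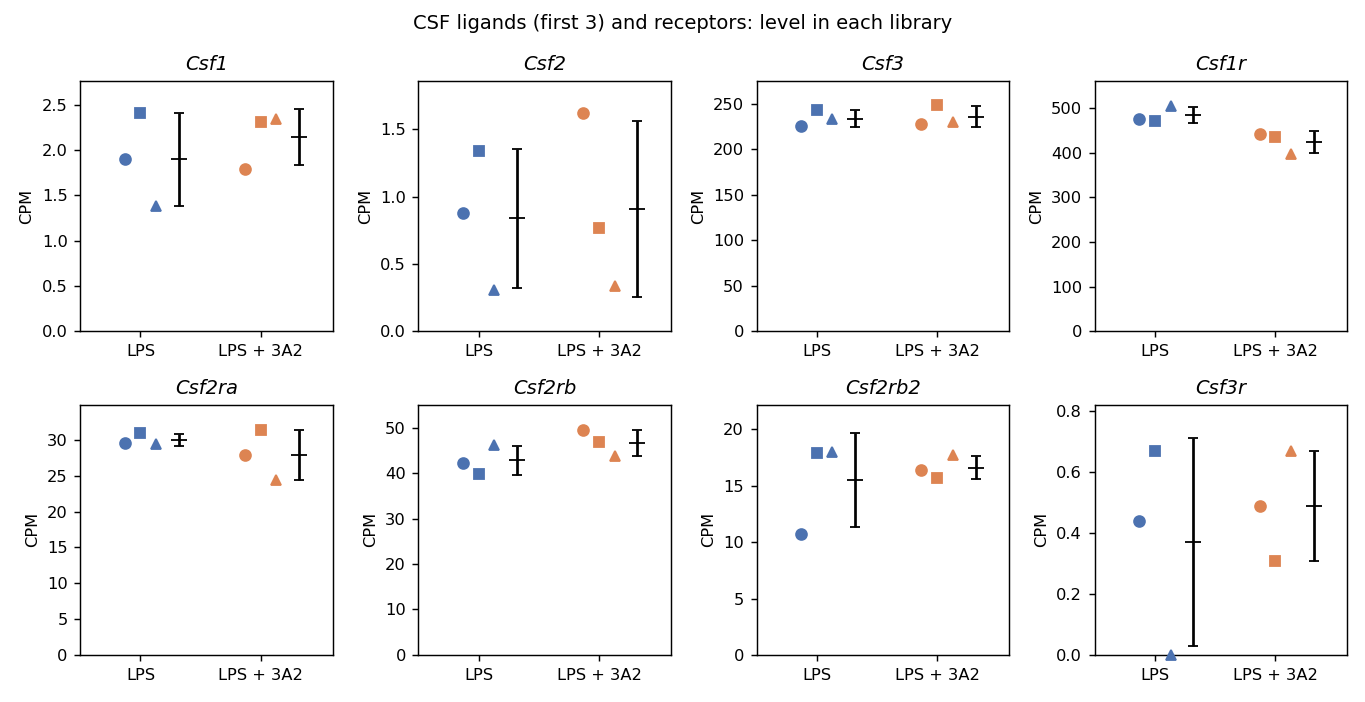
CPM (y axis, from 0) of the 3 ligand and 5 receptor genes in each library, with circles, squares and triangles for replicates 1, 2 and 3 and black bars for the mean and SD of each group (n = 3). The groups overlap for every gene but Csf1r, whose 3 LPS plus 3A2 libraries (397 to 442 CPM) lie below the 3 LPS libraries (471 to 505 CPM).

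Among the receptors, Csf1r was the gene whose groups separated. It measured 476, 471 and 505 CPM with LPS and 442, 436 and 397 CPM with LPS plus 3A2, from 2377 to 3523 counts a library. Every library with the antibody lay below every library without it, by a margin of 471 to 442 CPM between the nearest pair. The means were 484 ± 17.9 and 425 ± 24.5 CPM (SD, n = 3), a fold change of 0.878 with a 95% interval of 0.802 to 0.962. The unadjusted p by edgeR was 0.00728, and 108 of the 11498 tested genes had a smaller one. The adjusted p was 0.719, so Csf1r did not pass over all genes, and the difference is reported as one that failed the correction. In the exact permutation test the 3 against 3 split gave p = 0.1, the smallest possible.

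The granulocyte-macrophage receptor showed no separation in either kind of chain. Csf2ra, the ligand-binding α chain, measured 29.6, 31 and 29.5 CPM with LPS and 27.9, 31.4 and 24.4 CPM with LPS plus 3A2. The antibody group held both the highest and the lowest library, and the fold change was 0.93 (0.788 to 1.1, edgeR adjusted p = 0.87). Without LPS plus 3A2 replicate 2 its log2 fold change moved from -0.1 to -0.2, and without replicate 3 to -0.02. Csf2rb, the signalling β chain, measured 42.3, 39.9 and 46.2 CPM with LPS and 49.5, 46.8 and 43.7 CPM with LPS plus 3A2. LPS replicate 3 lay above LPS plus 3A2 replicate 3, so the groups overlapped, at a fold change of 1.09 (0.951 to 1.25, edgeR adjusted p = 0.822). Its log2 fold change of 0.13 was 0.08 without LPS replicate 2 and likewise without LPS plus 3A2 replicate 1. Csf2rb2 measured 10.7, 17.9 and 18 CPM with LPS and 16.4, 15.7 and 17.7 CPM with LPS plus 3A2, at 1.07-fold (0.834 to 1.36, edgeR adjusted p = 0.935). The low library was LPS replicate 1, and without it the log2 fold change was -0.11, against 0.09 with all libraries.

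Summed over the near-identical pair, the β chain genes measured 53, 57.8 and 64.2 CPM with LPS and 65.9, 62.5 and 61.4 CPM with LPS plus 3A2. The sum stood at 1.09-fold (0.955 to 1.23, edgeR adjusted p = 0.82). On the log2 scale this sum, at 0.12, became 0.06 once LPS replicate 1 was left out and 0.19 once LPS replicate 3 was. Csf2rb2 supplied 20.2%, 31% and 28% of the pair's counts with LPS and 24.9%, 25.1% and 28.8% with LPS plus 3A2. The exact 95% binomial interval was 16.2% to 24.7% in LPS replicate 1 and 26.7% to 35.6% in LPS replicate 2, so these libraries differed beyond counting error within 1 group. The mean shares of the groups were 26.4% ± 5.6 and 26.3% ± 2.2 (SD, n = 3), with p = 1 by the exact two-sided permutation test.

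Csf3r, the receptor for the abundant ligand Csf3, was barely detected. It had 3, 5 and 0 counts with LPS and 3, 2 and 4 with LPS plus 3A2. Pooled, this is 0.386 CPM with LPS (exact Poisson 95% interval 0.167 to 0.761) and 0.478 CPM with LPS plus 3A2 (0.219 to 0.908). In LPS replicate 3, where none was counted, levels up to 0.466 CPM (3 counts) remain possible. Antibody over LPS, the count ratio was 1.24 (0.424 to 3.69 from counting error), and the exact two-sided permutation test gave p = 0.7. A difference in Csf3r was not detectable at this depth.

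To compare genes with each other, CPM were divided by the length of the annotated transcript with the longest coding sequence. On this scale Csf3 stood highest, at 160 to 176 CPM per kb over the 6 libraries, followed by Csf1r at 84.4 to 107 and Csf2ra at 13.2 to 17. Csf2rb came next at 8.14 to 10.1 CPM per kb and Csf2rb2 at 2.26 to 3.79. Csf2, at 0.384 to 2.03 CPM per kb, and Csf1, at 0.331 to 0.577, overlapped and could not be ordered. Csf3r was lowest, at up to 0.192 CPM per kb. Apart from Csf2 and Csf1, the ranges of neighbours in this order did not overlap. Csf1, Csf2 and Csf3r had at most 18, 10 and 5 counts in a library. The ranges leave out counting error, so the places of these 3 genes are less certain. The level of Csf1r per kb was 151 to 324 times that of its ligand Csf1 in the same library. For the granulocyte factor the order was the other way round, with an abundant ligand and a near-absent receptor. The β chain genes together stood at 0.681 to 0.96 of the α chain Csf2ra per kb. That sum includes Csf2rb2, whose product pairs with the interleukin-3 receptor α chain. Csf2rb alone, at 8.14 to 10.1 CPM per kb, lay below Csf2ra, at 13.2 to 17, and their ligand Csf2 was scarce. These orders held in both groups. They rest on annotated lengths, and the transcript ends used in RAW264.7 cells were not measured.

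Taken over the members that passed the filter, 4 of 6 log2 fold changes lay above 0 and 2 below, with a median of 0.05, beside 50.4% above 0 and a median of 0.002 over all tested genes. By edgeR's quasi-likelihood test 0 members passed at an adjusted p under 0.05, where the share over all genes was 0%. DESeq2 and limma-voom also called 0 members and 0 of all genes. At an unadjusted p under 0.05 edgeR had 1 member, Csf1r, where 6.51% of all tested genes (749) reached it, and 3.09% in the downward direction. Groups that did not overlap were found for 1 member, again Csf1r, beside 12.3% of all tested genes, or 6.46% in the downward direction. A share of 1 in 6 is near that background and is not a result about the family. For 5 of the 6 members, all but Csf1, the 95% interval lay within 1.5-fold in either direction, as it did for 9138 of the 11498 tested genes (79.5%).

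**Figure D2:**
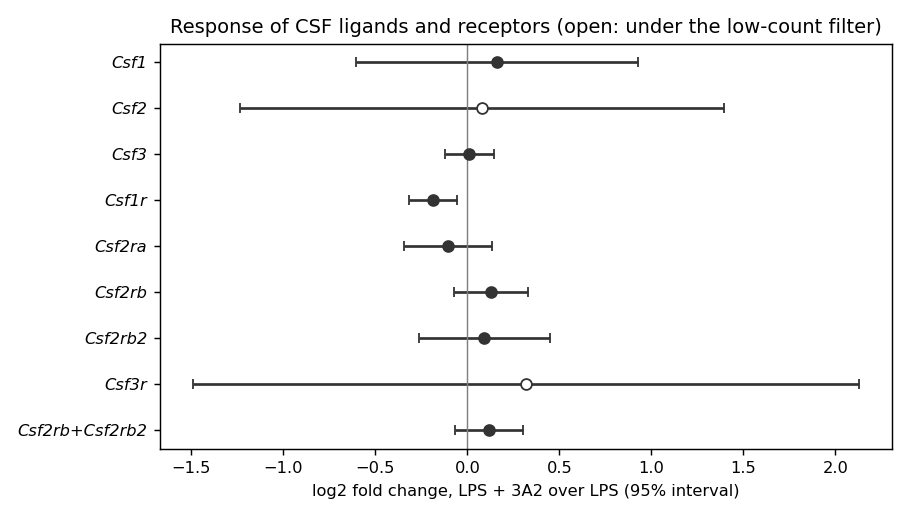
Log2 fold change of LPS plus 3A2 over LPS (x axis) with its 95% interval for each gene and for the summed pair, from edgeR. Filled points passed the filter on low counts and open points (Csf2, Csf3r) did not. The interval of Csf1r lies below 0, and all others span 0, with those of Csf1, Csf2 and Csf3r the widest.

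The lower Csf1r value was followed through each other way of fitting the data. Its log2 fold change was -0.19 (SE 0.063) with all libraries and stayed below 0 in 14 of 14 alternatives, from -0.22 to -0.12. All alternatives refit the same libraries, whose groups did not overlap for Csf1r. Leaving out a library could therefore hardly have turned the sign, and the constant sign is no separate evidence. The adjusted p ran from 0.137 to 0.999 over these alternatives, and none called it. Without LPS replicate 3, the highest library, the value was -0.16 and the 95% interval reached above 0. The lowest value of Csf1r, in LPS plus 3A2 replicate 3, came from the library in which mitochondrial mRNAs were highest, at 0.45 on the log2 scale from the mean of all libraries, and ribosomal protein mRNAs lowest, at -0.13. With the difference of these measures as a covariate, Csf1r stood at -0.12, with an interval of -0.21 to -0.02. Without that library it stood at -0.14.

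**Figure D3:**
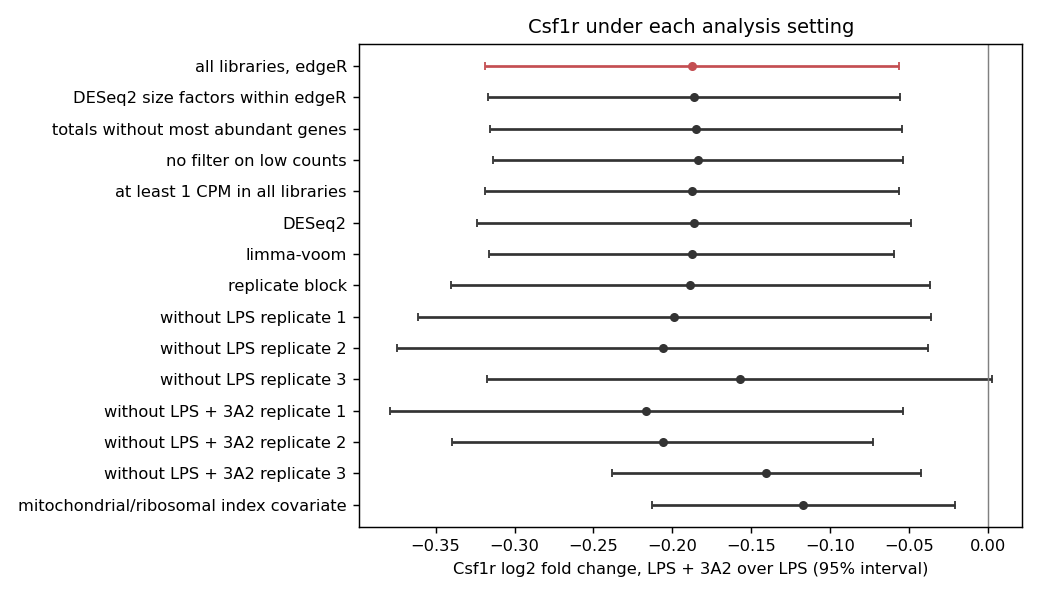
Csf1r log2 fold change (x axis) with its 95% interval under each analysis setting (rows), with the fit of all libraries by edgeR in red. Every estimate lies below 0, and the interval without LPS replicate 3 crosses 0.

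Genes that mark macrophages gave mixed values beside Csf1r. Summed over 8 markers, they measured 6562 to 6661 CPM with LPS and 5765 to 6154 CPM with LPS plus 3A2, ranges that did not overlap. Most of that sum was Lyz2, which encodes lysozyme, at 4353, 4397 and 4261 CPM with LPS and 3909, 3770 and 3660 CPM with LPS plus 3A2. Lyz2 stood at 0.871-fold (0.805 to 0.943, edgeR adjusted p = 0.719). With the covariate, which was added after the data were seen, Lyz2 passed (log2 fold change -0.17, edgeR adjusted p = 0.0196). That fit called 23 of 11498 genes, and no other setting called Lyz2. Itgam, which encodes the integrin chain CD11b, measured 423, 437 and 434 CPM with LPS and 405, 410 and 405 CPM with LPS plus 3A2. Its groups did not overlap either, and it stood at 0.942-fold (0.865 to 1.02, edgeR adjusted p = 0.812). The groups overlapped for the other 6 markers, Cd14, Cd68, Ptprc, Fcgr1, Adgre1 and Mertk, with Cd14 at 1122 to 1152 and 1043 to 1169 CPM. Adgre1, which encodes F4/80, was present at 11.9 to 15.7 CPM and Mertk at up to 0.811 CPM. In bulk RNA of a cell line, a lower level in every cell and a lower level in a part of the cells cannot be told apart. The part of these shifts in the Csf1r value was not tested.

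Markers of other cell types were low or at 0. Markers of lymphocytes, which include the T cells known to make CSF2, summed to at most 0.669 CPM, with Cd3e, Cd3g, Cd4, Cd8a and Ms4a1 at 0 counts in all libraries. Markers of fibroblasts, a known source of CSF1, summed to at most 0.439 CPM, with Col1a2 and Lum at 0. Neutrophil markers summed to 5.85 to 7.47 CPM with Ly6g, Ltf and S100a9 at 0, and S100a8 was present in every library at 5.7 to 7.47 CPM. Endothelial markers summed to 6.42 to 9.52 CPM with Tek at 0, most of it Vwf at 4.82 to 7.06 CPM. The neutrophil and endothelial sums lay above the level of Csf1. The cultures were of a macrophage line, so these values do not show that such cells were present, and their source was not tested.

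The genes nearest to Csf1r over the 6 libraries were Siglec1, which encodes the sialic acid receptor sialoadhesin of macrophages, Phf12 and Smc1a. Likeness was the root mean square difference of log2 CPM after centring each gene on its own mean, and it was 0.02 for each of the 3, against a median of 0.173 over all tested genes. Siglec1 measured 317, 314 and 339 CPM with LPS and 296, 301 and 271 CPM with LPS plus 3A2. As for Csf1r, LPS replicate 3 was its highest library and LPS plus 3A2 replicate 3 its lowest. With the covariate Siglec1 moved from -0.16 to -0.09 on the log2 scale. These matches were taken from 11498 genes over only 6 libraries and describe these libraries alone.

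Beyond the 8 genes, 7 lists of pathway genes held 76 genes, of which 67 were tested. By edgeR 0 passed over all genes, 30 lay above 0 and 37 below, and fold changes ran from 0.73 to 1.32. At an unadjusted p under 0.05 there were 6, or 2 higher and 4 lower, beside 6.51% of all genes. The rule for naming took the most abundant tested gene of each list and the one with the smallest p. In a gene picked by its p, separated groups can follow from that choice and are no separate evidence. Groups did not overlap for 12.3% of all tested genes. All 21 signal transducers of CSF receptors were detected, with 7 above 0 and 14 below and a median log2 fold change of -0.02. Lyn, a Src family kinase and the most abundant, stood at 1.01-fold (0.921 to 1.1). Ptpn6, which encodes the phosphatase SHP-1 that restrains CSF1R and β chain signalling, measured 239, 244 and 264 CPM with LPS and 218, 230 and 212 CPM with LPS plus 3A2. The groups did not overlap, and Ptpn6 stood at 0.882-fold (0.802 to 0.97, edgeR adjusted p = 0.719). With the covariate its log2 fold change moved from -0.18 to -0.12.

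Genes that STAT signalling is known to induce had 6 of 10 tested members above 0 and 4 below, a median of 0.02, and 0 passed the test. Osm, which encodes oncostatin M, a STAT5 target in myeloid cells, measured 41.6, 44.3 and 38.4 CPM with LPS and 46.6, 48.9 and 51.4 CPM with LPS plus 3A2. All 3 antibody libraries were above the LPS libraries, at 1.18-fold (1.03 to 1.35, edgeR adjusted p = 0.721). The survival gene Mcl1, most abundant of the list, stood at 0.982-fold (0.899 to 1.07).

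Among 9 tested transcription factors of the myeloid lineage 3 lay above 0 and 6 below, with a median of -0.07 and 0 past the test. Cebpb, which encodes an activator of myeloid cytokine and receptor genes, measured 226, 228 and 240 CPM with LPS and 202, 223 and 183 CPM with LPS plus 3A2, at 0.877-fold (0.79 to 0.973, edgeR adjusted p = 0.719). On the log2 scale -0.19 became -0.06 with the covariate, and -0.12 once LPS plus 3A2 replicate 3 was left out. Spi1 encodes PU.1, the factor known to drive Csf1r transcription. It measured 129, 135 and 132 CPM with LPS and 110, 129 and 103 CPM with LPS plus 3A2, at 0.864-fold (0.769 to 0.971, edgeR adjusted p = 0.719). LPS plus 3A2 replicate 2 reached the level of LPS replicate 1 in Spi1, so those groups overlapped, while those of Cebpb did not. For Spi1 the log2 value of -0.21 became -0.07 with the covariate, -0.31 once LPS plus 3A2 replicate 2 was left out and -0.14 once its replicate 3 was. Ets2, the most abundant factor, stood at 0.949-fold (0.873 to 1.03, edgeR adjusted p = 0.831). Its groups did not overlap either, at 443 to 452 CPM with LPS and 423 to 428 CPM with LPS plus 3A2.

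Subunits of NF-κB and AP-1, which drive Csf2 and Csf3 after Toll-like receptor stimulation, had 3 of 10 above 0 and 7 below, a median of -0.05 and 0 past the test. This tally turned to 7 above and 3 below, with a median of 0.04, with the covariate, and to 5 and 5 without LPS plus 3A2 replicate 3 (median 0.01) or without LPS replicate 3 (median -0.007). Junb was both the most abundant and the one with the smallest p, at 0.927-fold (0.841 to 1.02). On the log2 scale this difference of -0.11 became -0.02 with the covariate, and -0.05 once LPS plus 3A2 replicate 3 was left out. Factors of mRNA decay or stability bind AU-rich or stem-loop elements, and whether they bind the stretches printed for the ligands was not tested. They had 6 of 8 above 0 and 2 below, a median of 0.03 and 0 past the test. With the covariate they stood at 4 and 4. Zfp36, which encodes tristetraprolin, a destabilizer of Csf2 and Csf3 mRNA, stood at 1.01-fold (0.913 to 1.12). Zc3h12a, which encodes the RNase Regnase-1, measured 45, 47 and 47.1 CPM with LPS and 37.8, 44.5 and 36.9 CPM with LPS plus 3A2. Its groups did not overlap, at 0.858-fold (0.744 to 0.989, edgeR adjusted p = 0.748). With the covariate its log2 fold change moved from -0.22 to -0.1.

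Sheddases and their partners, a class of proteins that includes those releasing CSF1 and CSF1R from the cell surface, had 4 of 5 above 0 and 1 below, a median of 0.009 and 0 past the test. Adam17, the sheddase of CSF1R, stood at 1.01-fold (0.908 to 1.12). Adam10, a related membrane protease, measured 116, 111 and 107 CPM with LPS and 129, 117 and 138 CPM with LPS plus 3A2, at 1.15-fold (1.03 to 1.28, edgeR adjusted p = 0.719). With the covariate its log2 fold change moved from 0.2 to 0.08. Related cytokines and receptors were mostly undetected: Il3, Il5, Il3ra, Il5ra, Flt3 and Kit had 0 counts in all 6 libraries, which allows 0.404 to 0.495 CPM in a library. Of the α chain genes Csf2ra, Il3ra and Il5ra, only Csf2ra was detected. The 4 tested had 1 above 0 and 3 below, with Flt3l at 0.913-fold (0.675 to 1.24) and Epor at 0.73-fold (0.483 to 1.1). The log2 fold change of Epor, -0.45 with all libraries, was -0.24 with the covariate, -0.27 without LPS replicate 3, and -0.25 and -0.72 without LPS plus 3A2 replicates 1 and 2.

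**Figure D4:**
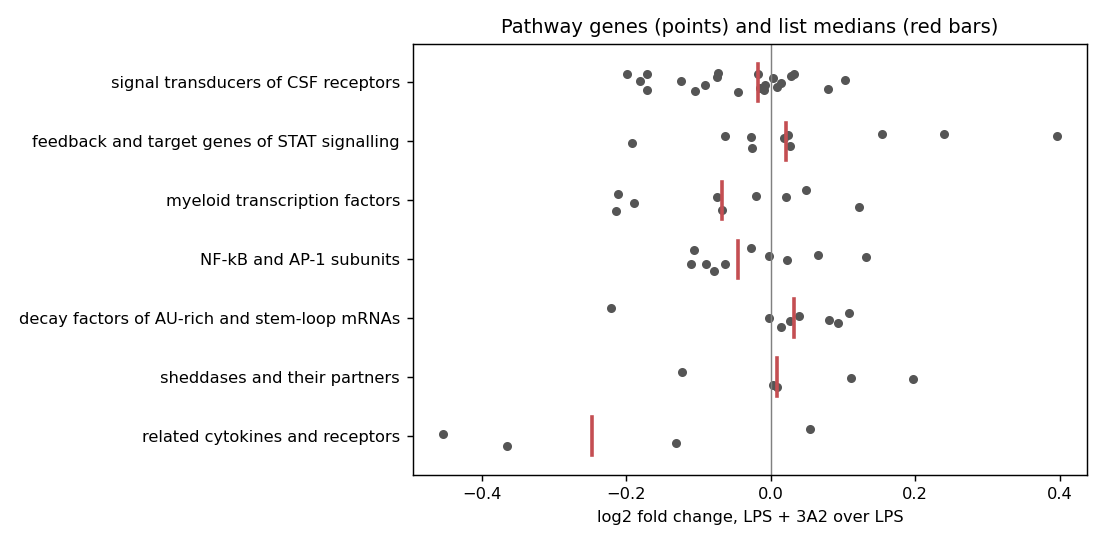
Log2 fold change of LPS plus 3A2 over LPS (x axis) for the tested genes of each of 7 pathway lists (points, spread vertically at random) with list medians as red bars. Medians lie between -0.07 and 0.03 for 6 lists and at -0.25 for the 4 related cytokines and receptors, whose levels are low.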

How the data were processed

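RNA from 6 RAW264.7 cultures was measured, 3 with LPS and 3 with LPS plus 3A2, labelled as biological triplicates. The authors deposited raw read counts per gene symbol, 1 column per library. Per the submitters' processing notes, the tools were HISAT2 and edgeR, with no version or role stated. The notes name a human build while the gene symbols are those of mouse, a conflict that could not be settled. Levels per kb take mouse transcript lengths, and a gene at 0 counts is one listed at 0 under an annotation that is not known here. Counting program, annotation and strandedness of the counting: not given in the sources used here, so no coordinates are printed and overlapping antisense genes are uncertain. There were 5 columns without a name, which were not used. No row lacked a gene name.

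Genes were filtered with filterByExpr (11498 kept), TMM-scaled and fitted in edgeR 4.0.16 (R 4.3.3). The comparison used its quasi-likelihood F test (robust, two-sided, no covariate), adjusted by Benjamini-Hochberg over all genes at 0.05. The biological coefficient of variation was 0.0768. Intervals are at the 95% level, and those of counts cover counting error only. Transcript lengths and sequences came from GENCODE M21 (GRCm38), where all 8 genes matched by symbol. The tests were tried on simulated data.

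The members and lists were chosen with earlier results of these data known. The rule for other genes took the most abundant and the smallest p in each list and the 3 genes nearest to a member. Il34, Spi1 and the marker genes fall outside it and were named after their values were seen. Some genes of the lists are not reported here by name. Alternatives were DESeq2 size factors, other totals, no filter, at least 1 CPM, DESeq2 1.42.0, limma-voom (limma 3.58.1), the replicate number as a block, a threshold of 0.01 and leaving out each library. A covariate of mitochondrial over ribosomal protein mRNA was added after the data were seen.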

Additional observations from a re-analysis of the deposited data

How the results depend on the processing

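Of the 8 ligand and receptor genes, 0 passed in any of the alternatives run. The count over all genes, 0 with all libraries, was 16 with no filter on low counts, 1 with the replicate block, 23 with the mitochondrial over ribosomal protein index as covariate, and 0 to 25 with a library left out, 25 without LPS plus 3A2 replicate 2. With the block Csf1r stood at -0.19 on the log2 scale. Libraries of the same number did not deviate together, with correlations of -0.03, -0.02 and -0.26 over 9459 genes for numbers 1, 2 and 3. Deviations from a mean of 3 libraries depend on each other, so these correlations cannot show whether the numbers pair the cultures. No label says that they do. The covariate turned Csf2ra to 0.052, Csf3r to -0.21, Adam17 to -0.13 and Flt3l to 0.18. It moved the median of the signal transducers to -0.038, and leaving out a library gave -0.059 to -0.017. With a library left out, log2 fold changes ran from -0.013 to 0.38 for Csf1, -0.604 to 0.59 for Csf2, -0.11 to 0.22 for Csf2rb2, -0.0303 to 0.041 for Csf3 and -0.203 to 1.04 for Csf3r. They ran from -0.063 to 0.0699 for Adam17, -0.28 to 0.0405 for Flt3l, -0.013 to 0.032 for Lyn and -0.045 to 0.053 for Zfp36. The difference in the share of Csf2rb2, -0.123 percentage points with all libraries, ran from -3.24 to 2.19 with a library left out and was 0.0087 as a log2 ratio of the counts. None of these genes passed the test, so their direction is not determined by these data, and the cause of each shift was not tested.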
